A study of Homo sapiens with 12 samples.

Results

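The genes described are 10 components of the NF-κB pathway, taken by symbol: the subunit genes NFKB1, NFKB2 and RELB, the IκB family genes NFKBIA, NFKBIZ and BCL3, and the ubiquitin regulators TNFAIP3, TNIP1, TNIP3 and BIRC3. All 10 were listed in the count tables, among 55242 genes left after genes named as rRNA were removed, and all 10 passed the filter on low counts in each comparison. The counts came from Hs 578T, a human triple-negative breast cancer cell line, in which RNA was sequenced after 8 h in medium with 0.8 mM L-cystine (with Cyss) or in the same medium lacking it (without Cyss). The cells had been transduced with lentivirus for GFP, the control, or for exogenous full-length NRF2, the transcription factor that switches on antioxidant genes. The 4 groups were thus GFP with Cyss, GFP without Cyss, NRF2 with Cyss and NRF2 without Cyss, with 3 libraries in each. The medium of all 4 groups held serum, methionine and glutamine. The sources used here describe no single-cell cloning of the transduced cells and do not say whether the 3 libraries of a group came from separate cultures, so p-values measure the spread between these libraries. Since RNA was taken from whole cultures, fewer cells of a kind and less RNA per cell cannot be told apart. The question addressed was whether NF-κB pathway transcripts changed when Cyss was withdrawn, and whether that response differed between NRF2 and GFP cells.

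NF-κB is a family of dimeric transcription factors that IκB proteins hold inactive in the cytoplasm. In the canonical pathway, stimuli such as TNF, IL-1 and bacterial products activate kinases that lead to the destruction of IκB proteins. In the noncanonical pathway, which other stimuli start through the kinase encoded by MAP3K14, the NFKB2 precursor is processed. The freed dimers then bind κB sites in DNA. Among the genes they switch on are genes for their own subunits and for inhibitors that end the response, so that these transcripts are often read as an output of the pathway.

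Promoters of the 10 genes are shown first because the κB site is what they are known to share. The genes were chosen as subunits and feedback inhibitors of NF-κB, a class known to be switched on by it. Matches were therefore favoured by the choice, and their number is a description, not a separate result. The same holds for the list of NF-κB targets below. RefSeq promoters (GRCh38.p14, 250 bases before to 50 after each start) were found for 9 of the 10 genes, with 16 starts, and RELB had no entry. On either strand, the κB consensus matched in 12 of the 16 promoters and in at least 1 promoter of each of the 9 genes. Over all 35116 promoters of the table, 11.3% held a match, and 13.3% of the 27305 genes had at least 1 such promoter. Of 22 genes of a list of NF-κB targets found in the table, 12 had a κB match, 5 the antioxidant response element core and 1 the amino acid response element, the last 2 motifs being given below. Among all 27305 genes, the shares with a match in at least 1 promoter were 13.3%, 16.1% and 2% for these 3 motifs. Matches at 2 or more places in 1 promoter, as in TNFAIP3, BIRC3 and NFKB2 starts 2 and 3, occurred in 2.04% of all promoters. The antioxidant response element core TGACNNNGC, the site NRF2 is known to bind, matched in the NFKBIA promoter alone, 65 to 57 bases before the start, against 13.3% of all promoters. The amino acid response element (TGATGNAAT or TGATGCAAN) matched in none of the 16 promoters and in 1.62% of all. The stretches below lie before the start, run 5′ to 3′ on the strand of the gene, and have the κB matches in capitals with up to 40 bases on either side. The lines for NFKB1, NFKBIZ, TNFAIP3 and BIRC3 belong to genes called as upregulated without Cyss in NRF2 cells, by thresholds given below. NFKB2 and TNIP1 also rose in these cells, with no overlap between the media, but missed the fold threshold (log2FC 0.29 and 0.26). For NFKBIA the media overlapped in NRF2 cells, and TNIP3 was downregulated there.
NFKB1 start 1, chr4:102501270-102501358, plus strand: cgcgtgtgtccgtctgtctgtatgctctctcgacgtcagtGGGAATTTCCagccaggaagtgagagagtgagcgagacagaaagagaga
NFKB2 start 2, chr10:102394431-102394549, plus strand: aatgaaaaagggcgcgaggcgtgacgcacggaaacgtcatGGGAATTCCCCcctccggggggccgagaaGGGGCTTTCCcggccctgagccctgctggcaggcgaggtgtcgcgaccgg
NFKBIA, chr14:35404781-35404870, minus strand: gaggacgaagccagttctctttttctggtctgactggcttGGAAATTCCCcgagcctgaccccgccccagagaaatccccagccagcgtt
NFKBIZ start 1, chr3:101827740-101827816, plus strand: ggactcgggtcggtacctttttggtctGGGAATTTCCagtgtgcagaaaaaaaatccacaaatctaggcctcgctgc
NFKBIZ start 2, chr3:101849264-101849324, plus strand: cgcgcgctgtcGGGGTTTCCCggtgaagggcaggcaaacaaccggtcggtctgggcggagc
TNFAIP3, chr6:137867152-137867253, plus strand: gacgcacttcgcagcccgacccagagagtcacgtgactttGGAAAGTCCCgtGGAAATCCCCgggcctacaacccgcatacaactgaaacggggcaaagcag
TNIP1 start 2, chr5:151081035-151081116, minus strand: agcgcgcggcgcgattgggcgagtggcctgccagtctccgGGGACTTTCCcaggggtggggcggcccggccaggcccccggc
TNIP3 start 3, chr4:121227496-121227585, minus strand: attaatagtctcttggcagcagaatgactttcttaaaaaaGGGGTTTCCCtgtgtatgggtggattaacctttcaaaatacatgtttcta
BIRC3, chr11:102317245-102317398, plus strand: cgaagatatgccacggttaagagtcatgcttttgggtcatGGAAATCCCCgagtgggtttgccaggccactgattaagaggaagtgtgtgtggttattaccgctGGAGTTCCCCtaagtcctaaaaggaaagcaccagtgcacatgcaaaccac

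In NFKB2 start 2, the first run of capitals holds 2 overlapping matches. The match of BCL3, GGGAAGTCCC, lay after the start at chr19:44748710-44748719 on the plus strand, at bases 3 to 12 of the transcript. A match says only that these letters are present and does not show that a factor was bound in these cells.

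**Figure D1:**
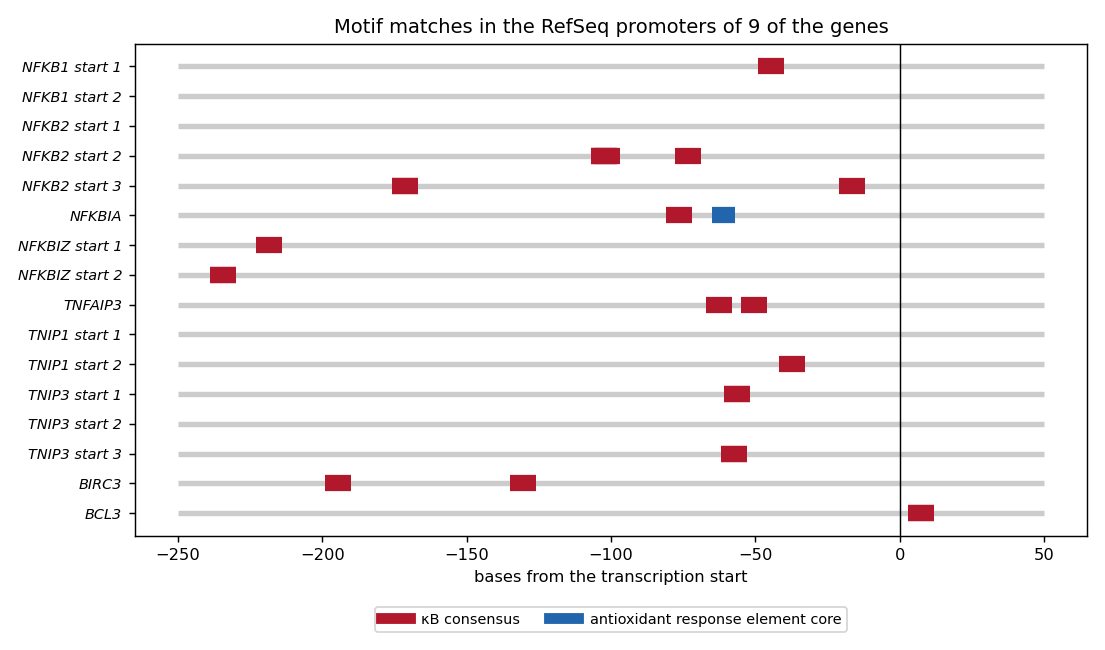
Places of motif matches in the 16 RefSeq promoters of 9 of the genes, in bases from the transcription start (vertical line), with κB consensus matches in red and the antioxidant response element core in blue. Of the 16 promoters, 12 hold a κB match, and the blue mark appears in NFKBIA alone.

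Facts of the whole series bear on the results as follows. Each library held between 27334061 and 44734611 reads counted on genes (median 32974255). NFE2L2, the gene of NRF2, had 3647 to 3842 normalized counts in the libraries of GFP with Cyss and 6598 to 6940 in those of NRF2 with Cyss, and 4501 to 4655 and 7401 to 8396 without Cyss, so that NRF2 and GFP libraries did not overlap in either medium. Reads of the exogenous and the endogenous NRF2 sequence cannot be told apart in these counts. The cells are labelled epithelial, whereas the mesenchymal genes VIM and FN1 had at least 142637 and 785418 normalized counts in every library and the epithelial markers EPCAM and CDH1 at most 1.03 and 13.8. The summed level of 8 epithelial markers, most of it KRT18 and KRT8, was 942 to 1050 in NRF2 with Cyss, 1338 to 1591 in NRF2 without Cyss, 1120 to 1260 in GFP with Cyss and 1347 to 1699 in GFP without Cyss. Immune markers were low, with CD3E and MS4A1 at 0 in all libraries and a sum over 6 markers of 54.4 to 89.9, and the part of either marker list in the results was not tested. GFP without Cyss replicate 3 had a score of 3.61 on principal component 1, against -12 and -9.21 for its 2 fellow libraries. The libraries of NRF2 without Cyss scored 27.7, 27.1 and 30.2, above all others. How many of all genes did not overlap between groups was not counted. Non-overlap is therefore given below only to describe single genes.

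A gene is called here if edgeR's quasi-likelihood test gave an adjusted p under 0.1 over all genes tested and a log2FC above 0.32 in size. In GFP cells without against with Cyss, 1 of the 10 genes, TNIP3, was downregulated and none was upregulated, where 0.533% of 17452 genes tested were downregulated and 1.57% upregulated. DESeq2's Wald test gave the same counts, and 1 gene, NFKBIZ, was higher at an unadjusted p under 0.05 in edgeR. That level is a weak one, met in either direction by 3160 of the 17452 genes in GFP cells and 5887 of 17266 in NRF2 cells. Between NRF2 and GFP cells it was met by 3321 of 17449 with Cyss and 5962 of 17297 without. In the interaction test described below it was met by 4376 of 17674. In NRF2 cells, 5 of the 10 were upregulated (NFKB1, RELB, NFKBIZ, TNFAIP3 and BIRC3) and TNIP3 was downregulated, where 6.81% of 17266 genes were upregulated and 5.14% downregulated. Scaled by library size only, the numbers over all genes in NRF2 cells were 936 upregulated and 1397 downregulated, against 1176 and 887 with TMM. Between NRF2 and GFP cells with Cyss, TNIP3 alone was called, as higher in NRF2 cells, where 1.36% of 17449 genes were higher and 0.201% lower. BIRC3 was the 1 gene lower at an unadjusted p under 0.05, and DESeq2 called none lower. In NRF2 cells without Cyss, 5 of the 10 (RELB, NFKBIZ, TNFAIP3, TNIP3 and BIRC3) were called as higher than in GFP cells without Cyss, where 5.98% of 17297 genes were higher and 4.09% lower. NFKB1, NFKB2 and TNIP1 were also higher, with adjusted p of 0.00122, 0.00507 and 0.00253 in edgeR, but missed the fold threshold. None of the 10 was lower in edgeR, also at an unadjusted p under 0.05, or in DESeq2, which called 6 as higher with TNIP1 added. Scaling by library size changed these last numbers over all genes from 1034 higher and 708 lower to 876 and 1001.

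For 7 of the 10 genes, NFKB1, NFKB2, RELB, NFKBIZ, TNFAIP3, TNIP1 and BIRC3, Cyss withdrawal had a more positive effect in NRF2 cells, by an interaction test in edgeR on the 12 libraries with an adjusted p under 0.1. No difference was negative at that threshold, at an unadjusted p under 0.05, or in DESeq2's test, which also called 7. Over all 17674 genes tested, 8.97% had a positive and 6.13% a negative difference, or 1585 and 1084 genes, which became 1124 and 1981 under scaling by library size only. The median of the differences was 0.31 for the 10 genes and -0.013 for all genes. The 10 genes and the pathway lists were chosen with earlier results of these data known. Contrasts between them and all genes, here and elsewhere, may thus have been favoured by the choice and are a description. Comparisons that share a group share its 3 libraries, so the 4 comparisons are not independent of one another.

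**Figure D2:**
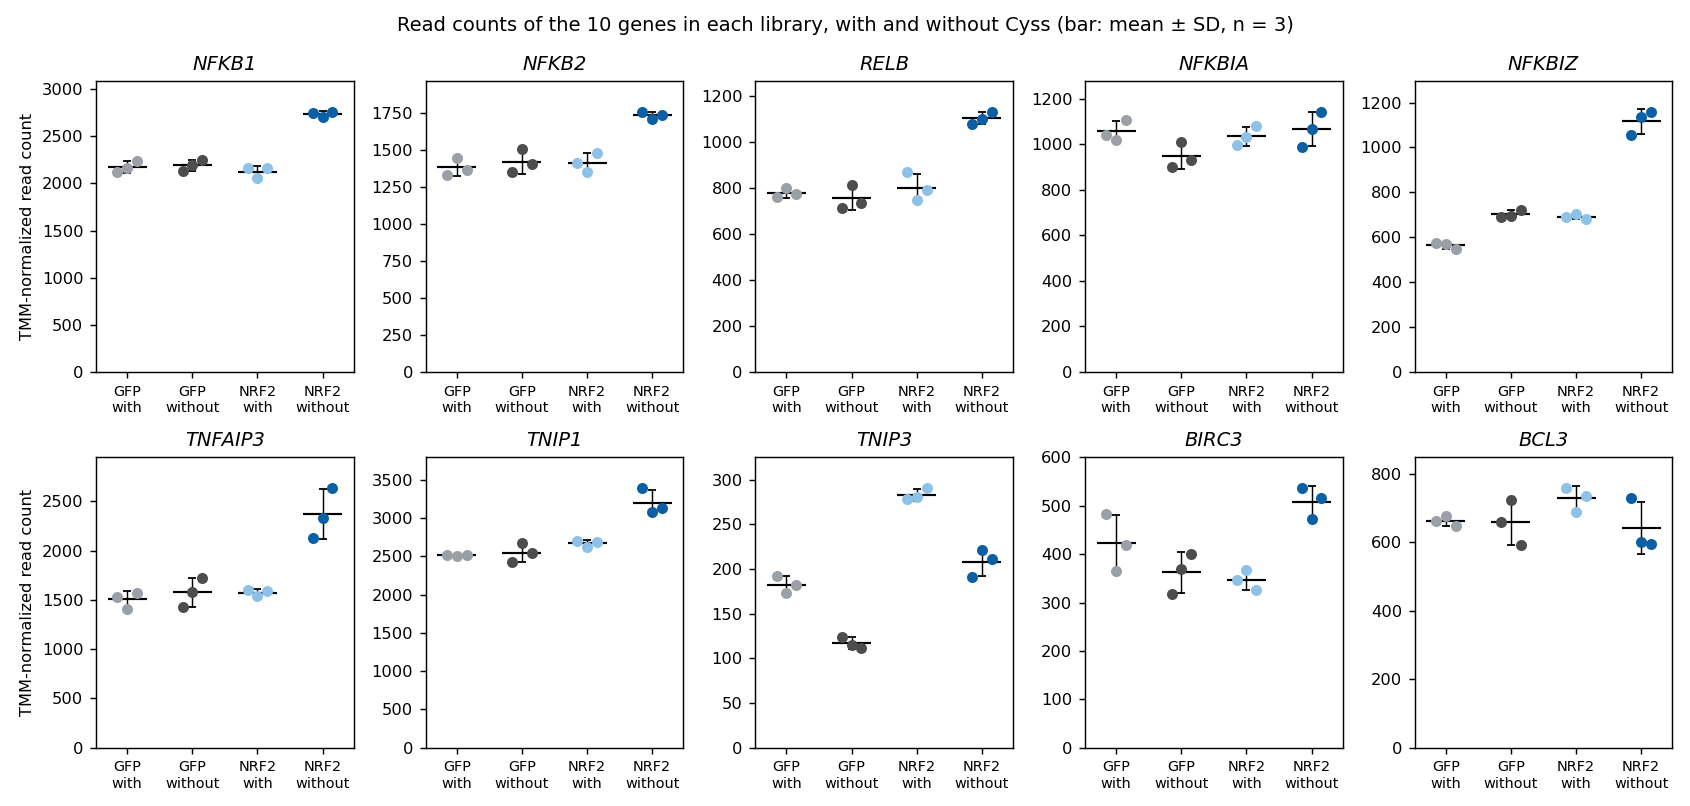
Normalized counts of the 10 genes (vertical axes, from 0) in each of the 12 libraries, by group, with the mean ± SD of 3 libraries. In the panels of NFKB1, NFKB2, RELB, NFKBIZ, TNFAIP3 and TNIP1 the libraries of NRF2 without Cyss lie above all others, TNIP3 is lower without Cyss in both cell types, and NFKBIA and BCL3 overlap between media in NRF2 cells. The share of all genes with such a separation was not computed.

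NFKB1, NFKB2 and RELB encode 3 of the 5 NF-κB subunits. NFKB1 gives the precursor of the p50 subunit of the canonical dimer, and NFKB2 that of its counterpart in the noncanonical one. In GFP cells, NFKB1 had 2115, 2167 and 2242 normalized counts with Cyss and 2135, 2194 and 2251 without. In NRF2 cells it had 2162, 2055 and 2159 with Cyss and 2748, 2698 and 2754 without. The 3 libraries of NRF2 without Cyss were above the other 9, which overlapped. The log2FC without against with Cyss was 0.36 in NRF2 cells (SE 0.046, edgeR adjusted p = 4.64e-05) and 0.011 in GFP cells (SE 0.042, edgeR adjusted p = 0.920), and the responses differed by 0.35, NRF2 minus GFP (SE 0.059, edgeR adjusted p = 0.00151). NFKB1 is close to the fold threshold: with counts scaled by library size only, its log2FC in NRF2 cells was 0.30. Against GFP cells without Cyss, its log2FC of 0.30 (edgeR adjusted p = 0.00122) was under that threshold, and became 0.33, a call, without GFP without Cyss replicate 3.

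NFKB2 had 1332, 1447 and 1365 normalized counts in GFP with Cyss and 1348, 1506 and 1403 in GFP without Cyss. The values were 1409, 1350 and 1476 in NRF2 with Cyss and 1753, 1709 and 1737 in NRF2 without Cyss. Again only the libraries of NRF2 without Cyss stood above the rest. The increase in NRF2 cells had an adjusted p of 7.47e-04 in edgeR's test, but its log2FC of 0.29 (SE 0.051) did not reach the threshold, except without NRF2 with Cyss replicate 3 (0.33). The mean of NFKB2 in NRF2 without Cyss was 1.22-fold that of GFP without Cyss, a log2FC of 0.28 (SE 0.055, edgeR adjusted p = 0.00507), which became 0.32 and a call without GFP without Cyss replicate 2. The interaction was 0.26 (SE 0.073, edgeR adjusted p = 0.0330), and without NRF2 with Cyss replicate 2 it was 0.22 with an adjusted p of 0.101, no longer a call.

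RELB, the partner of the processed NFKB2 product in the noncanonical dimer, had 759, 798 and 775 normalized counts in GFP with Cyss and 713, 813 and 735 without. In NRF2 cells the counts were 866.5, 747 and 789 with Cyss and 1077, 1100 and 1128 without. The mean rose 1.38-fold without Cyss in NRF2 cells, with no overlap, while the GFP groups overlapped. The log2FC was 0.46 (SE 0.063, edgeR adjusted p = 8.93e-05) in NRF2 cells and -0.048 (SE 0.060, edgeR adjusted p = 0.718) in GFP cells. RELB had the highest interaction of the 3 subunit genes, at 0.51 (SE 0.087, edgeR adjusted p = 0.00160), and a log2FC of 0.54 between NRF2 and GFP without Cyss (SE 0.063, edgeR adjusted p = 3.68e-04). The 2 other subunit genes, REL and RELA, were not called by edgeR or DESeq2 in the 4 comparisons or the interaction, and the log2FC of RELA, the main activating subunit of the canonical dimer, was 0.20 in NRF2 cells and 0.073 in GFP cells. RELA was higher at an unadjusted p under 0.05 in NRF2 cells without Cyss against both other groups compared, and its interaction was positive at that level. In either direction, that level was also met by 5887 of 17266 genes in NRF2 cells. It was met by 5962 of 17297 between the cell types without Cyss and by 4376 of 17674 in the interaction.

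The IκB family genes differed among themselves. NFKBIA encodes IκBα, the inhibitor that is destroyed on activation of the pathway and made anew by it. Its normalized counts were 1042, 1020 and 1108 in GFP with Cyss, 899, 1010 and 932 in GFP without Cyss, 996, 1030 and 1080 in NRF2 with Cyss and 990, 1069 and 1141 in NRF2 without Cyss. The media overlapped in NRF2 cells, while in GFP cells the highest library without Cyss lay just under the lowest with Cyss. NFKBIA was not called in any comparison: its log2FC without against with Cyss was 0.042 (SE 0.062, edgeR adjusted p = 0.680) in NRF2 cells and -0.16 (SE 0.057, edgeR adjusted p = 0.159) in GFP cells. The interaction of 0.20 (SE 0.086, edgeR adjusted p = 0.154) passed the threshold without NRF2 without Cyss replicate 1, at 0.25 with an adjusted p of 0.0682.

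NFKBIZ, which encodes the nuclear protein IκBζ that is needed for a subset of NF-κB target genes such as IL6, was the IκB family gene that changed most in NRF2 cells. In GFP cells it had 574, 570.2 and 547 normalized counts with Cyss and 691, 693 and 723 without. In NRF2 cells it had 689, 702.5 and 682 with Cyss and 1054, 1137 and 1157 without. Counts were thus higher without Cyss in both cell types with no overlap, and the values of GFP without Cyss and of NRF2 with Cyss overlapped. The log2FC in NRF2 cells was 0.69 (SE 0.059, edgeR adjusted p = 7.80e-07), a 1.61-fold rise in the mean. In GFP cells the log2FC was 0.315 (SE 0.055, edgeR adjusted p = 0.00555), just under the fold threshold, and it was called without GFP with Cyss replicate 1 (0.33) or 2 (0.32) and without GFP without Cyss replicate 1 (0.33) or 2 (0.32). The interaction was 0.37 (SE 0.076, edgeR adjusted p = 0.00513). With Cyss, NFKBIZ was also higher in NRF2 than in GFP cells by a log2FC of 0.29 (SE 0.055, edgeR adjusted p = 0.00594), under the fold threshold, and without Cyss by 0.66 (SE 0.059, edgeR adjusted p = 1.16e-04), which was called.

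BCL3 encodes a nuclear IκB protein that joins dimers of the p50 type of subunit on DNA. The counts were 661, 677 and 649 in GFP with Cyss, 658, 725 and 591 in GFP without Cyss, 759, 689.8 and 737 in NRF2 with Cyss and 730.5, 600 and 596 in NRF2 without Cyss. The media overlapped in both cell types, and in NRF2 without Cyss replicate 1 was apart from the other 2 libraries. Its log2FC was -0.18 (SE 0.081, edgeR adjusted p = 0.121) in NRF2 cells and -0.012 (SE 0.070, edgeR adjusted p = 0.953) in GFP cells. BCL3 was the only one of the 10 genes with an interaction below 0 (-0.17, SE 0.11, edgeR adjusted p = 0.368), which became -0.27 and passed the threshold (adjusted p = 0.0967) without that library. The other IκB genes NFKBIB, NFKBIE and NFKBID were likewise not called in these 5 tests by edgeR or DESeq2, with at most 1 of them at an unadjusted p under 0.05 in any test. In NRF2 cells 1 of the 3 was downregulated under scaling by library size only, with no filter on low counts, with all 12 libraries in the fit, with a replicate block and without NRF2 with Cyss replicate 2 or NRF2 without Cyss replicate 3.

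Of the ubiquitin regulators, TNFAIP3 encodes the ubiquitin-editing enzyme A20, which shuts off signalling below TNF and IL-1 receptors. It had 1533, 1410 and 1574 normalized counts in GFP with Cyss and 1428, 1584 and 1723 in GFP without Cyss. The counts in NRF2 cells were 1600, 1536 and 1585 with Cyss and 2131, 2333 and 2635 without. The lowest library of NRF2 without Cyss lay above all 9 others, although the spread within that group was wide (2366 ± 254, SD, n = 3). TNFAIP3 rose by a log2FC of 0.59 in NRF2 cells (SE 0.066, edgeR adjusted p = 1.35e-05), where its mean was 1.5-fold higher, and its log2FC in GFP cells was 0.066 (SE 0.066, edgeR adjusted p = 0.635). The interaction was 0.52 (SE 0.10, edgeR adjusted p = 0.00409), and the log2FC between NRF2 and GFP without Cyss was 0.57 (SE 0.081, edgeR adjusted p = 8.38e-04).

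TNIP1 and TNIP3 encode related adaptors that bind A20 and ubiquitin chains. For TNIP1 the counts were 2515, 2507 and 2514 in GFP with Cyss and 2433, 2669 and 2543 in GFP without Cyss. They were 2707, 2629 and 2686 in NRF2 with Cyss and 3395, 3083 and 3131 in NRF2 without Cyss, the latter above the remaining 9 libraries. The rise in NRF2 cells, a log2FC of 0.26 (SE 0.050, edgeR adjusted p = 0.00172), was below the fold threshold, and the log2FC in GFP cells was 0.019 (SE 0.043, edgeR adjusted p = 0.860). The interaction was 0.24 (SE 0.064, edgeR adjusted p = 0.0267). Without Cyss, TNIP1 stood at the threshold between NRF2 and GFP cells, with a log2FC of 0.317 (SE 0.055, edgeR adjusted p = 0.00253) that became a call with DESeq2's size factors or Wald test (0.33 in both), with all 12 libraries in the fit (0.33), without NRF2 without Cyss replicate 2 (0.35) or 3 (0.33), and without GFP without Cyss replicate 2 (0.35).

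TNIP3 went the other way. In GFP cells its counts were 192, 173 and 182 with Cyss and 124, 115 and 112 without. In NRF2 cells they were 278, 279.9 and 291 with Cyss and 191, 222 and 211 without. TNIP3 was lower without Cyss in both cell types and higher in NRF2 than in GFP cells in both media, with no overlap between the groups in any of these 4 comparisons. The log2FC without against with Cyss was -0.64 in GFP cells (SE 0.097, edgeR adjusted p = 0.00210) and -0.44 in NRF2 cells (SE 0.087, edgeR adjusted p = 0.00194). NRF2 against GFP cells gave a log2FC of 0.64 with Cyss (SE 0.080, edgeR adjusted p = 1.95e-04) and 0.81 without (SE 0.11, edgeR adjusted p = 5.40e-04). The interaction of 0.19 (SE 0.12, edgeR adjusted p = 0.358) did not pass the threshold, so that unequal responses were not detected for this gene. The 4 calls of TNIP3 held under each scaling, filter, test and threshold tried and with each library left out.

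BIRC3 encodes a ubiquitin ligase of the inhibitor of apoptosis family that acts at TNF receptors and, with TRAF proteins, keeps the kinase encoded by MAP3K14 low. It had 483, 364.5 and 419 normalized counts in GFP with Cyss and 317, 370.1 and 400.1 in GFP without Cyss. In NRF2 cells it had 347, 367 and 326 with Cyss and 537, 473 and 515 without. The GFP groups overlapped and the NRF2 groups did not. The log2FC was 0.55 in NRF2 cells (SE 0.078, edgeR adjusted p = 1.19e-04) and -0.22 in GFP cells (SE 0.11, edgeR adjusted p = 0.298), and the interaction of 0.77 (SE 0.14, edgeR adjusted p = 0.00246) was the largest of the 10 genes. Between NRF2 and GFP cells, the log2FC was -0.28 with Cyss (SE 0.092, edgeR adjusted p = 0.11) and 0.48 without (SE 0.091, edgeR adjusted p = 0.00412). The value with Cyss became -0.38 and a call (adjusted p = 0.0222) without GFP with Cyss replicate 2, the lowest of its group.

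**Figure D3:**
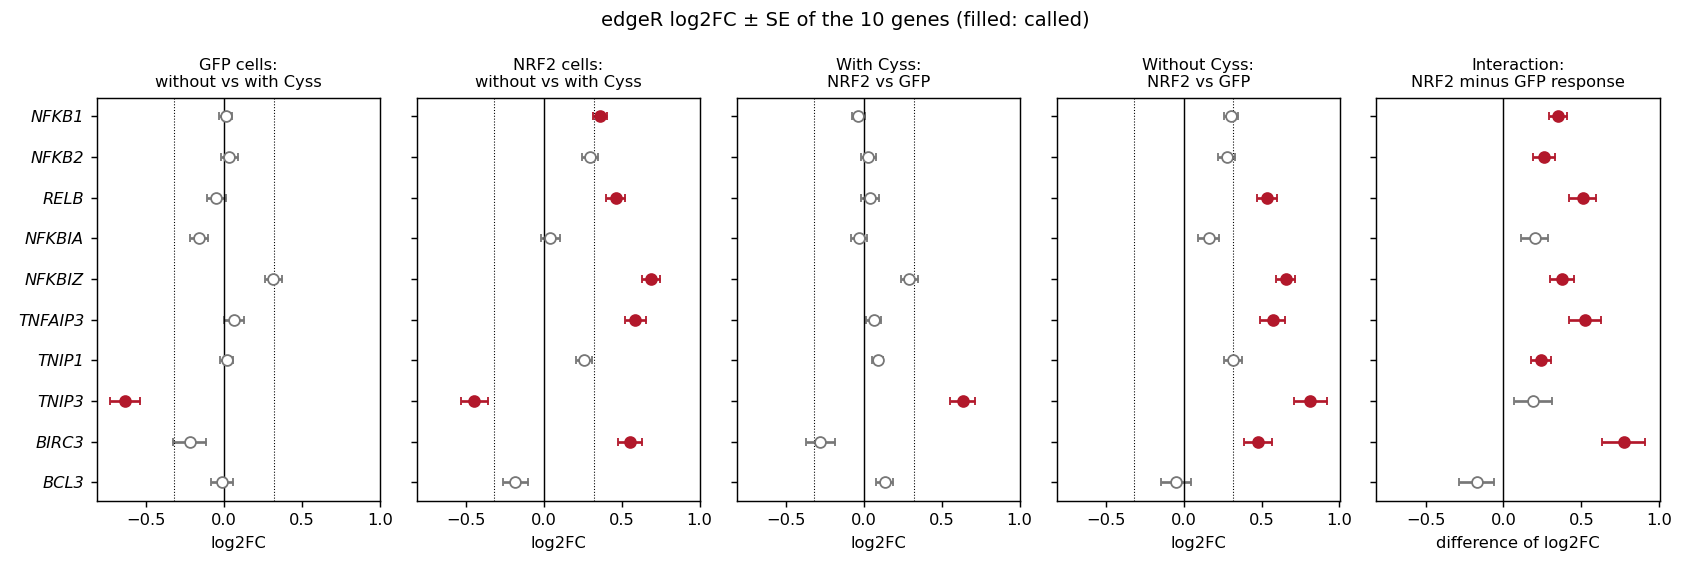
Log2FC ± SE from edgeR for the 10 genes in the 4 comparisons, and the interaction, the response to Cyss withdrawal in NRF2 cells minus that in GFP cells (right panel). Filled points were called and dotted lines mark a log2FC of 0.32 in size; 7 genes are filled in the right panel, from TNIP1 at 0.24 to BIRC3 at 0.77.

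Counts of different genes can be compared only after division by transcript length, for which the canonical transcript of GENCODE 44 was used. As RPKM, that is, reads relative to transcript length and library depth, levels in GFP with Cyss ran from 26.1 ± 0.0453 for TNIP1 through 20.2 ± 0.874 for NFKBIA, 16.0 ± 0.467 for NFKB1 and 13.6 ± 0.587 for NFKB2 (SD, n = 3 each). There followed BCL3 at 10.5 ± 0.223, RELB at 10.2 ± 0.260 and TNFAIP3 at 9.61 ± 0.543, which overlapped with their neighbours in this order, then NFKBIZ at 4.28 ± 0.11, TNIP3 at 2.26 ± 0.120 and BIRC3 at 1.83 ± 0.257 (SD, n = 3 each). The libraries of the other neighbours did not overlap. In NRF2 without Cyss, TNIP1 still had the highest level (33.2 ± 1.74, SD, n = 3), NFKB1 at 20.1 ± 0.227 overlapped with NFKBIA at 20.4 ± 1.45, and TNFAIP3 at 15.1 ± 1.62 and RELB at 14.5 ± 0.339 overlapped with each other and stood above BCL3 at 10.2 ± 1.21 (SD, n = 3 each). BIRC3 had the lowest mean level in 3 of the groups, at 1.5 to 2.20, and TNIP3 in GFP without Cyss, at 1.45, where its libraries overlapped with those of BIRC3.

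**Figure D4:**
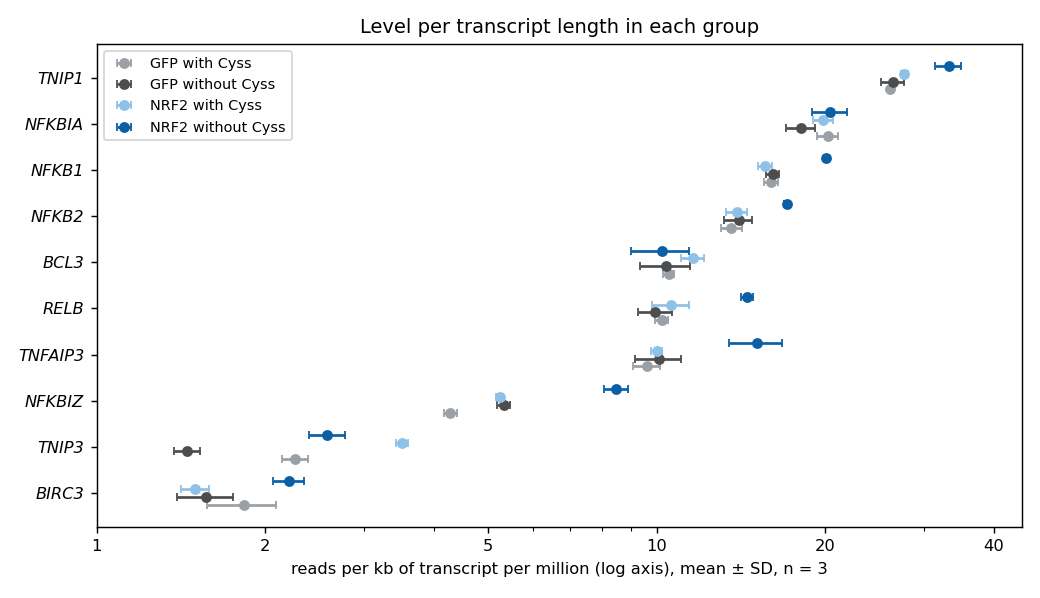
RPKM (log axis) for the 10 genes in the 4 groups, as mean ± SD of 3 libraries. TNIP1 has the highest mean in every group, and TNIP3 and BIRC3 the lowest.

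The rest of the pathway was described by 6 lists with 73 genes. In GFP cells without against with Cyss, 4 of 63 tested were upregulated and 1 downregulated, where 1.57% of all genes were upregulated and 0.533% downregulated. The median log2FC was 0.012 against 0.0015 for all genes tested. In NRF2 cells, 14 of 64 were upregulated and 3 downregulated, where 6.81% of all genes were upregulated and 5.14% downregulated. The median was 0.11 against -0.012. All 4 and all 14 of the upregulated genes were in the list of 27 NF-κB target genes, of which 19 and 20 were tested. Of 8 receptors tested, none was called in the 4 comparisons by edgeR or DESeq2, and at most 3 were higher and 1 lower at an unadjusted p under 0.05 in any of them. With no fold threshold, up to 3 receptors were called per comparison. Over all genes, that setting called 543 higher and 490 lower of 17452 in GFP cells and 2633 and 2379 of 17266 in NRF2 cells. Between the cell types it called 724 and 398 of 17449 with Cyss and 2425 and 2551 of 17297 without.

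The target genes encode mainly cytokines, chemokines and adhesion molecules. PTGS2, the gene of an enzyme of prostaglandin synthesis, had 277, 227 and 217 normalized counts in GFP with Cyss, 353, 482 and 780.3 in GFP without Cyss, 229, 193 and 172 in NRF2 with Cyss and 1461, 1706 and 1947 in NRF2 without Cyss. Its mean was 2.24-fold higher without Cyss in GFP cells and 8.60-fold in NRF2 cells, with log2FC of 1.16 (SE 0.22, edgeR adjusted p = 0.00990) and 3.11 (SE 0.11, edgeR adjusted p = 1.92e-10). CXCL8, the gene of the chemokine that attracts neutrophils, had 1069, 934 and 1025 counts in GFP with Cyss, 984, 1750 and 2333 in GFP without Cyss, 2263, 2174 and 2321 in NRF2 with Cyss and 6577, 8152 and 10186 in NRF2 without Cyss. The GFP groups overlapped for CXCL8, and both NRF2 groups stood above the GFP group of the same medium. It was called in all 4 comparisons, with log2FC of 0.74 without against with Cyss in GFP cells (SE 0.21, edgeR adjusted p = 0.0775) and 1.88 in NRF2 cells (SE 0.11, edgeR adjusted p = 1.89e-08).

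The other target genes called in GFP cells were the cytokine genes IL1B, with a log2FC of 0.76, and IL6, with 0.60. In NRF2 cells the largest log2FC after that of PTGS2 were 2.16 for CXCL3, a chemokine gene, 1.96 for IL1B, 1.88 for CXCL8, 1.76 for IL6 and 1.58 for LIF, a cytokine of the IL-6 family. The median over the target genes tested was 0.33 for GFP cells and 1.26 for NRF2 cells. No target gene was downregulated in either by edgeR or DESeq2, with 1 in each lower at an unadjusted p under 0.05, except that 1 was called in NRF2 cells under scaling by library size only, with no fold threshold and without NRF2 with Cyss replicate 3 or NRF2 without Cyss replicate 2. The number in GFP cells depended on single libraries: it was 9 without GFP without Cyss replicate 1 and 3 without replicate 3. Over all genes, these settings gave 306 upregulated and 133 downregulated, and 234 and 68. In the interaction test, 12 of 20 target genes had a positive difference and none a negative one, with PTGS2 (1.95), CXCL3 (1.59), CXCL2 (1.40), LIF (1.25), PTX3 (1.21) and IL1B (1.21) the largest. Over all 17674 genes tested, 8.97% had a positive and 6.13% a negative difference. Without GFP without Cyss replicate 3, 12 of 21 target genes were positive and 1 negative, against 1717 and 1215 of all 17737 genes tested. With Cyss, CXCL8 (log2FC 1.16) and TNFRSF9 (0.54) were called as higher in NRF2 than in GFP cells, and no other target gene was called. Over all 17449 genes tested, 1.36% were called as higher. At an unadjusted p under 0.05 in edgeR, 5 of the 19 target genes tested were higher and 1 was lower. Without Cyss, 14 of 20 target genes were called as higher, led by CXCL8 (2.29), CXCL3 (1.75), PTGS2 (1.66), CXCL2 (1.51), ICAM1 (1.25) and PTX3 (1.23). Over all 17297 genes tested, 5.98% were higher and 4.09% lower.

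Among the 21 adaptors and kinases, MAP3K14, which encodes the kinase that starts the noncanonical pathway and the processing of the NFKB2 precursor, was downregulated without Cyss. Its counts were 639, 657 and 641 in GFP with Cyss and 467, 471 and 416.5 in GFP without Cyss, and 675, 689 and 709 in NRF2 with Cyss and 364, 372 and 375 in NRF2 without Cyss. The groups did not overlap in either cell type. The log2FC was -0.52 in GFP cells (SE 0.062, edgeR adjusted p = 2.86e-04), and -0.90 in NRF2 cells (SE 0.064, edgeR adjusted p = 1.29e-07), where MAP3K14 is named after its values were seen. The other downregulated genes of the lists in NRF2 cells, also named after their values were seen, were TRAF5 (-0.49), an adaptor of TNF family receptors, and TRAF1 (-0.37), which was listed among the feedback inhibitors. In that list of 10 other feedback inhibitors, which holds the deubiquitinase genes CYLD and OTULIN, none was called in GFP cells by edgeR or DESeq2, where 4 were lower at an unadjusted p under 0.05, and TRAF1 alone was called in NRF2 cells. The medians of the list were -0.058 and 0.012, near those of all genes.

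**Figure D5:**
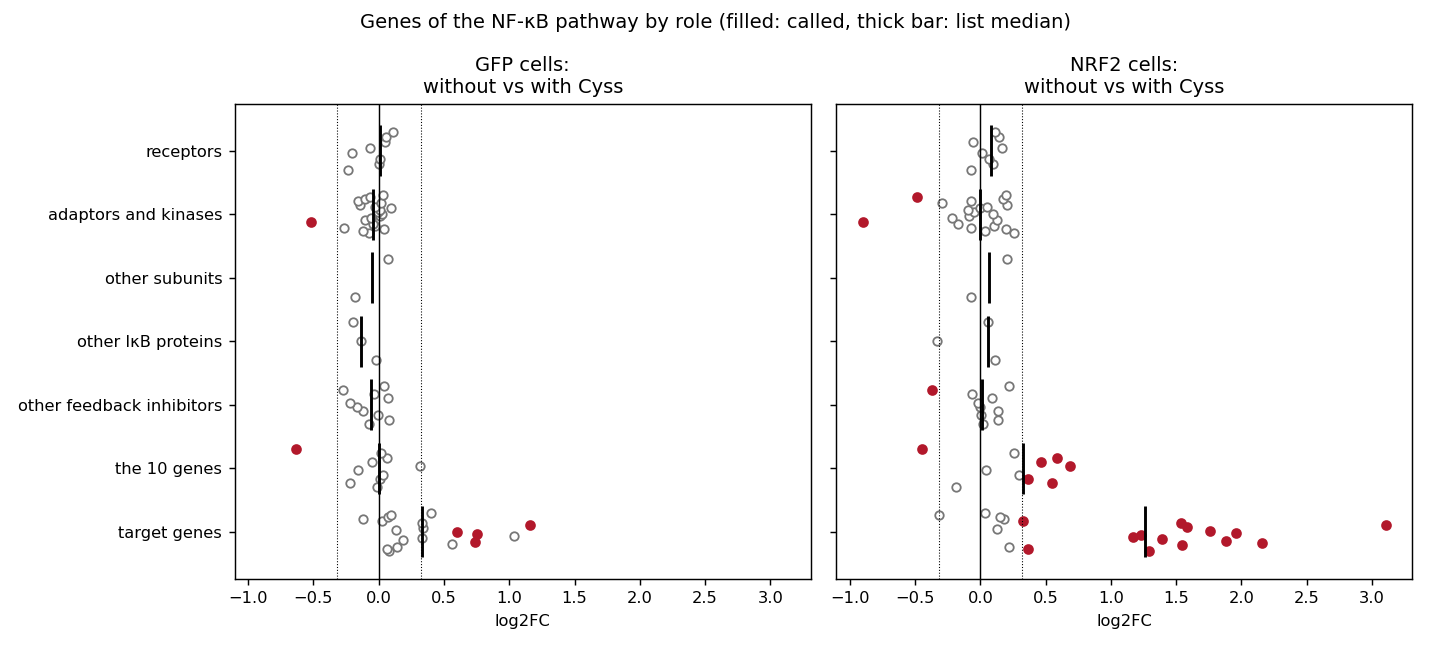
Log2FC without against with Cyss for every gene tested in the 6 pathway lists and the 10 genes, in GFP cells (left) and NRF2 cells (right), with calls filled, the list median as a thick bar and dotted lines at 0.32 in size. In NRF2 cells the target genes have a median of 1.26 and the 10 genes one of 0.33, whereas the medians of the other lists lie between -0.0036 and 0.082.

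Over the 12 libraries, the genes with the most similar pattern among 13528 genes whose mean normalized count was 50 or more were ranked by Pearson's r of log2 counts, as a description. The libraries share 4 groups, and NRF2 without Cyss was far from the rest for most of the 10 genes, so r was also computed over the 9 other libraries. For NFKB1 the nearest genes were PIK3CD (r = 0.986), FHOD3 (0.984) and ZFPM2 (0.983), and over 9 libraries the values were 0.829, 0.787 and 0.713. NFKB2 was nearest to FOXC2 (0.967), TMEM44 (0.965) and EHD1 (0.964), with 0.79, 0.727 and 0.745 over 9 libraries. RELB was nearest to SRM (0.971), RBM15B (0.961) and ZNF710 (0.957), with 0.878, 0.722 and 0.75. The nearest to NFKBIZ were SCUBE3, EGR1 and PPARD, all at 0.980, with 0.835, 0.871 and 0.856 over 9 libraries. The nearest to NFKBIA were SNHG17 (0.887), PRKCD (0.858) and the pseudogene CYP51P2 (0.848), with 0.924, 0.837 and 0.886, and those to BCL3 were GNAO1 (0.921), FGF14 (0.915) and RNF207 (0.892), with 0.864, 0.89 and 0.868. TNFAIP3 was nearest to RGMB (0.986), TMEM158 (0.985) and KDM5C (0.984), with 0.834, 0.869 and 0.786 over 9 libraries, and TNIP1 to SMARCA4 (0.989), ZC3H7B (0.980) and CLPTM1 (0.974), with 0.922, 0.794 and 0.852.

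Over the 12 libraries, r between BCL3 and the other 9 genes ran from -0.448 to 0.33, and that between TNIP3 and NFKBIA was 0.562. With the genes other than BCL3, TNIP3 had r of 0.041 to 0.562 and NFKBIA 0.19 to 0.562, whereas the remaining 7 genes had 0.587 to 0.947 with one another. These 7 are the genes with a called positive interaction, so their r may rest on the libraries of NRF2 without Cyss. For pairs among the members, r without that group was not computed. The nearest genes to TNIP3 were IGF2BP3 (r = 0.969), SLC6A6 (0.966), a taurine transporter gene, and TXNRD1 (0.961), the gene of thioredoxin reductase and a known NRF2 target. For these the values over the 9 libraries were 0.972, 0.991 and 0.967, so that they did not rest on NRF2 without Cyss. BIRC3 was nearest to RRP1B (0.961), RBMS1 (0.948) and SERTAD2 (0.942), with 0.959, 0.916 and 0.892 over 9 libraries.

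Reads were counted without regard to strand, which limits genes that overlap others. In GENCODE 44 on GRCh37, exons of NFKBIZ (chromosome 3, 101546835 to 101579866) share 194 bases with NXPE3 on the same strand. Exons of TNFAIP3 (chromosome 6, 138188351 to 138204451) share 95 bases with the long noncoding RNA WAKMAR2 on the other strand, and those of BIRC3 (chromosome 11, 102188215 to 102210134) share 126 bases with an unnamed long noncoding RNA. The part of these overlaps in the counts was not tested.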

How the data were processed

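Per the labels and the study's methods, the authors sequenced single-end TruSeq mRNA libraries, mapped the reads to hg19 (GRCh37) with TopHat2 2.1.0, and counted reads on exons without regard to strand with HTSeq 0.11.2. The deposited values are these raw counts per gene symbol, not normalized. The version of the counting annotation is not given in the sources used here. The 5 counters of unassigned reads, 15.9 to 17.1% of the reads in a file, and 523 genes named as rRNA were left out.

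For each pair of groups, the 6 libraries were normalized by TMM and genes whose mean normalized count reached 10 in either group were tested by edgeR 4.0.16 (R 4.3.3) with its quasi-likelihood test and Benjamini-Hochberg adjustment over all genes tested. The interaction used all 12 libraries. SE is the log2FC divided by the square root of F. Counts per library in the text were normalized over all 12. Alternatives were other scalings, filters and thresholds, DESeq2 1.42.0, a replicate block, and each library left out. The procedure was also run on simulated counts, with the same dispersion for all genes and planted changes larger than the smallest called here. That run therefore does not show how well changes of the smallest size are found. Promoters came from RefSeq (GRCh38.p14) and gene positions and lengths from GENCODE 44 on GRCh37, and the builds were not mixed. With 3 libraries against 3, an exact permutation test of a single gene cannot go below p = 0.1. The genes and lists were chosen with earlier results of these data known. By rule, all 10 genes are named, and of the pathway lists up to 6 called genes per comparison with the largest log2FC and at least 50 counts in the higher group.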

Additional observations from a re-analysis of the deposited data

Results flagged for a closer look

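For 7 of the 10 genes the response to Cyss withdrawal differed between NRF2 and GFP cells in edgeR's interaction test with an adjusted p under 0.1, on the 12 libraries. Over all 17674 genes tested, 8.97% had a positive and 6.13% a negative difference. The differences, NRF2 minus GFP on the log2 scale, were 0.7708 for BIRC3, 0.5214 for TNFAIP3, 0.5091 for RELB, 0.3749 for NFKBIZ, 0.3511 for NFKB1, 0.2594 for NFKB2 and 0.2404 for TNIP1. For BIRC3 and RELB the log2FC of the 2 cell types had opposite signs, although those in GFP cells (-0.2201 and -0.0481) did not pass the threshold.

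In the pathway lists the same test was passed by 12 target genes: PTGS2 (1.949), CXCL3 (1.594), CXCL2 (1.399), LIF (1.245), PTX3 (1.208), IL1B (1.205), ICAM1 (1.202), IL6 (1.159), CXCL8 (1.143), IER3 (0.8413), SOD2 (0.3059) and SDC4 (0.2972). It was also passed in the positive direction by the adaptors and kinases TAB3 (0.3434), BIRC2 (0.3326), TRAF3 (0.2767) and MAP3K7 (0.2365), by OTUD7B (0.2551), a deubiquitinase gene, and by the receptor gene TLR4 (0.2353). The difference was negative for TRAF5 (-0.4168) and MAP3K14 (-0.3846). Those beyond the 6 largest are named after their values were seen. The shares to set these counts against are again 8.97% positive and 6.13% negative over all genes tested.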

How the results depend on the processing

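None of the 20 called values of the 10 genes reversed in 295 recomputations. They stayed called apart from NFKB1 in NRF2 cells under scaling by library size only and the interaction of NFKB2 without NRF2 with Cyss replicate 2. With no fold threshold, 2 of the 10 genes were called in GFP cells (NFKBIZ and TNIP3), 8 in NRF2 cells (NFKB2 and TNIP1 added), 2 between NRF2 and GFP cells with Cyss (the same genes) and 8 without Cyss (NFKB1, NFKB2 and TNIP1 added). Over all genes, that setting called 543 higher and 490 lower in GFP cells (274 and 93 with the threshold), 2633 and 2379 in NRF2 cells (1176 and 887), 724 and 398 with Cyss (237 and 35) and 2425 and 2551 without (1034 and 708). With Cyss, DESeq2's Wald test called 155 and 15, and edgeR 142 and 18 without NRF2 with Cyss replicate 1 and 155 and 15 without its replicate 3. The interaction, at 1585 positive and 1084 negative, gave 1063 and 528 at an adjusted p under 0.05, 964 and 590 without NRF2 with Cyss replicate 3, 1108 and 609 without GFP with Cyss replicate 1, and 913 and 482 without GFP without Cyss replicate 2. Leaving out each library in turn gave 1 to 2 calls in GFP cells, where NFKBIZ was added without GFP with Cyss replicate 1 or 2 or GFP without Cyss replicate 1 or 2, and 1 to 2 between NRF2 and GFP cells with Cyss, where BIRC3 was added without GFP with Cyss replicate 2. Counts over the target genes were recomputed by choice after seeing the data.

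Signs changed only for values near 0 that were not called. In GFP cells without against with Cyss, NFKB1 was -0.0015 with no filter on low counts, and leaving out libraries gave -0.0064 to 0.0313 for NFKB1, -0.0093 to 0.0719 for NFKB2, -0.0162 to 0.0514 for TNIP1 and -0.085 to 0.0605 for BCL3. In NRF2 cells, NFKBIA was -0.0173 under scaling by library size only and -0.0088 to 0.0943 with libraries left out. Between NRF2 and GFP cells, the range was -0.0031 to 0.0628 for NFKB2, -0.0216 to 0.087 for RELB and -0.0586 to 0.0053 for NFKBIA with Cyss, and -0.1434 to 0.027 for BCL3 without Cyss. The causes were not tested.

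Replicate numbers were not treated as pairs. Over all genes, deviations from group means of same-numbered libraries correlated at -0.0311 to 0.137, and not every library correlated best with its own number. Such values cannot show that the cultures were unpaired. Without Cyss, some genes rose from replicate 1 to 3 in both cell types. CXCL8 had 984, 1750 and 2333 counts in GFP cells and 6577, 8152 and 10186 in NRF2 cells. TNFAIP3 had 1428, 1584 and 1723, and 2131, 2333 and 2635. The target genes IL6, IL1B, LIF, PTGS2, PTX3 and IER3, named after their values were seen, also rose in both cell types. Others did not rise in both, such as SOD2 and NFKB1. NFKB1 had 2135, 2194 and 2251 in GFP cells and 2748, 2698 and 2754 in NRF2 cells. The cause was not tested. With a replicate block, 8 of the 10 genes had a called interaction, NFKBIA (0.2002) being added, while over all genes the calls rose from 1585 positive and 1084 negative to 1866 and 1307, and the counts in the 4 comparisons were 1, 6, 1 and 5, as without it. Of the 10 genes, TNIP3 and BIRC3 had the fewest reads and so the largest counting error.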
